A study of Mus musculus with 49 samples.

Results

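Tardbp, the mouse gene that encodes the RNA-binding protein TDP-43, and 8 transcripts reported to be its RNA targets (Stmn2, Unc13a, Sort1, Hdac6, Elavl3, Celf5, Pfkp and Adnp2) were followed across the neocortex of 49 mice. These 9 genes were chosen by name, from a list of reported targets, among the 45252 genes of the count table. The choice was made with earlier results of these data known. All 9 passed the filter on low counts, with at least 362 counts for each gene in every mouse, so that all members entered every comparison among the 18220 genes tested. The study asked whether active immunization against C-terminal epitopes of TDP-43 alters disease in rNLS8 mice. For the 9 genes this gave 3 questions, namely how each rNLS8 group differed from the monogenic controls, whether immunized and PBS-treated rNLS8 mice differed, and whether any transcript varied with Tardbp from mouse to mouse.

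All mice were on a mixed background (C57BL/6J x C3H/HeJ) and carried a tetO-hTDP43ΔNLS allele, which encodes a human TDP-43 that lacks the nuclear localization signal. The bigenic rNLS8 mice also carried NEFH-tTA, in which the promoter of the neurofilament heavy chain gene drives the activator in neurons, so that removal of doxycycline switches the transgene on. The control group, ctrl-PBS, held 17 monogenic mice treated with PBS (10 females and 7 males). The rNLS8 groups were TDP-PBS, TDP-10+12 and TDP-15. TDP-PBS held 10 mice (4 females and 6 males) treated with PBS. TDP-10+12 held 10 mice (6 females and 4 males) immunized with peptides 10 and 12. TDP-15 held 12 mice (5 females and 7 males) immunized with peptide 15. By the paper's methods the peptides were conjugated to ovalbumin, and the regimen used a CpG oligonucleotide and Alhydrogel as adjuvant. The dose was 40 µg of conjugate in total, given from 8 weeks of age 5 times before and 1 time after induction. The PBS groups received PBS in place of these conjugates. Doxycycline was removed from the chow of all mice at 25.5 weeks, and tissue was taken at 28.5 weeks, 3 weeks later. Every library came from 1 mouse, and no immunized monogenic mice were analysed here.

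TDP-43 is a mostly nuclear protein that binds UG-rich RNA, represses cryptic exons and shapes splicing and stability of many long neuronal transcripts. It also limits its own amount, since the protein binds the 3' UTR of its mRNA and lowers the level of that mRNA. In amyotrophic lateral sclerosis and frontotemporal dementia it leaves the nucleus and aggregates in the cytoplasm. Loss of nuclear TDP-43 lowers full-length STMN2 and UNC13A in human neurons through cryptic exons that lie in the human genes and are not conserved in the mouse genes. Counts per gene, as deposited, cannot show a cryptic exon or a change of isoform.

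UG repeats in the mature mRNA are shown first because they are the sequence that TDP-43 recognizes. For each member but Adnp2, the longest run of TG in the longest protein-coding transcript is printed within a window of 30 bases, 5′ to 3′ on the strand of the gene, with the run in capitals (GENCODE M21, GRCm38).
Tardbp: tcctcctatagTGTGTGTGgacagcccaca
Stmn2: gatcgtgggtacTGTGTGTccatgtgaacc
Unc13a: ctctgcacaTGTGTGTGTGTGgctgtgtgt
Sort1: ctttatatataTGTGTGTGTacatatatac
Hdac6: ggcctcctgggccgcTGTGTGTcctttcag
Elavl3: aaaaccatgtgaTGTGTGaaatgcactgtg
Celf5: agtgtgcgaacgTGTGTGTccgggatgtcg
Pfkp: cgcctgccactgatggagTGTGTGcaaatg
The coordinates given here are those of the windows of 30 bases. The longest of these runs, 12 bases, was that of Unc13a (window chr8:71628386-71628415, minus strand), in the 3' UTR (exon 44 of 44). The run of Tardbp, 8 bases (window chr4:148613760-148613789, minus strand), lay in the 3' UTR too (exon 6 of 6). Those of Stmn2 (chr3:8560818-8560847, plus strand), Sort1 (chr3:108360891-108360920, plus strand), Elavl3 (chr9:22017418-22017447, minus strand) and Celf5 (chr10:81459618-81459647, minus strand) were also in the last exon, within the 3' UTR. Hdac6 (chrX:7944714-7944743, minus strand, exon 5 of 29) and Pfkp (chr13:6604956-6604985, minus strand, exon 10 of 22) had theirs in coding sequence.

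The hexamer TGTGTG, searched on the sense strand with overlapping matches counted, occurred in 68.0% of the longest protein-coding transcripts of 21866 genes. Unc13a held 12 copies, and 26.4% of the 322 transcripts within 10% of its length held as many. Tardbp held 6 copies, which 39.9% of 809 transcripts of similar length matched or exceeded, and Sort1 held 4, which 61.4% of 999 matched or exceeded. The other 6 members had 1 to 3 copies, a number that 54.8% to 91.1% of transcripts of their length also reached. By this measure the mature mRNAs of most members did not hold more of the hexamer than other mRNAs of similar length. Introns, where much TDP-43 binding is known to lie, were not searched. By gene length, introns included, the members ran from the percentile 45.4 of Tardbp (14638 bp) to 84.99 of Sort1 (77430 bp), and Tardbp was the only member in the shorter part of all genes.

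Total counts were 17775738 to 21033608 per mouse (median 19955601), and the replicates are separate mice. The neocortical label was checked with marker genes. None of the 12 neuronal markers was at 0 in any group, while olfactory bulb markers (5 genes, in sum 4.77 to 140 CPM) and choroid plexus markers (4 genes, in sum 11.4 to 1692 CPM) stood out in some libraries. Striatum markers (5 genes) summed to 187 to 1163 CPM. Thalamus markers (5 genes) summed to 74.5 to 101 CPM in ctrl-PBS and 88.9 to 143 in the rNLS8 mice, above all controls in 21 of 32, with Prkcd and Rora called higher and Ramp3 lower in TDP-PBS. The part of these markers in the results was not tested. The 9 mice with at least 50 CPM of the former or 1000 CPM of the latter (2 ctrl-PBS, 1 TDP-PBS, 4 TDP-10+12 and 2 TDP-15) were left out in an alternative fit, whose values are given where a call changes.

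In the ctrl-PBS mice the members spanned a wide range of levels, which are compared here as CPM (counts scaled to the TMM-adjusted library total) per kb of the longest protein-coding transcript. Stmn2 (median 126.5, range 110 to 140.0 CPM per kb) and Celf5 (median 121, range 100.5 to 152) were highest and overlapped. Elavl3 (median 86.2, range 77.6 to 103) overlapped Celf5 above it and Sort1 (median 80.6) below it. Below them came Pfkp (58.4), Unc13a (32.6), Tardbp (19.6), Hdac6 (12.3) and Adnp2 (4.91), each without overlap with its neighbor in this order. Stmn2, Celf5, Elavl3 and Sort1 thus stood at the top, and Hdac6 and Adnp2 at the bottom, with Tardbp next above them. The upper part of this order depended on the length used. With the union of all annotated exons, Stmn2 fell to 46.8 CPM per kb, below Celf5 (79.9), Sort1 (72.8) and Elavl3 (62.7), and Pfkp (18.1) came after Unc13a (26.5) and Tardbp (18.8).

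In the rNLS8 mice Stmn2 (median 95.7 CPM per kb) stood between Celf5 (106) and Elavl3 (94.5), with overlapping ranges. By the longest transcript, Stmn2 thus went from the first place to the second, and the other members kept the order of the controls. In TDP-PBS alone Elavl3 (98.7) was above Stmn2 (96.5), also with overlapping ranges. With the union of all annotated exons, Stmn2 was at place 4 in ctrl-PBS and in the rNLS8 mice. On that length Elavl3 (68.8) stood above Sort1 (62.1) and Pfkp (15.8) above Tardbp (15.5) in the rNLS8 mice, unlike in ctrl-PBS.

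Most of the members differed in mean level between the genotypes. In TDP-PBS mice, 6 of the 9 genes (Tardbp, Stmn2, Unc13a, Sort1, Celf5 and Pfkp) were lower than in ctrl-PBS, Elavl3 was higher, and Hdac6 and Adnp2 did not pass the test (edgeR quasi-likelihood test, Benjamini-Hochberg adjusted p under 0.05 over all genes tested). Across all genes tested, 43.5% were called in this comparison, 21.9% higher and 21.6% lower, so a call as such was common. The median log2 fold change of the 9 members was -0.21, beside -4e-04 over all genes tested. In TDP-10+12 the same 6 members were lower and Elavl3 higher, with 40.8% of all genes called (20.8% higher, 20.0% lower). In TDP-15 the same 6 were lower and none was called higher, with 46.9% of all genes called (23.6% higher, 23.2% lower). These 3 comparisons share the ctrl-PBS mice and are therefore not independent of each other.

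**Figure D1:**
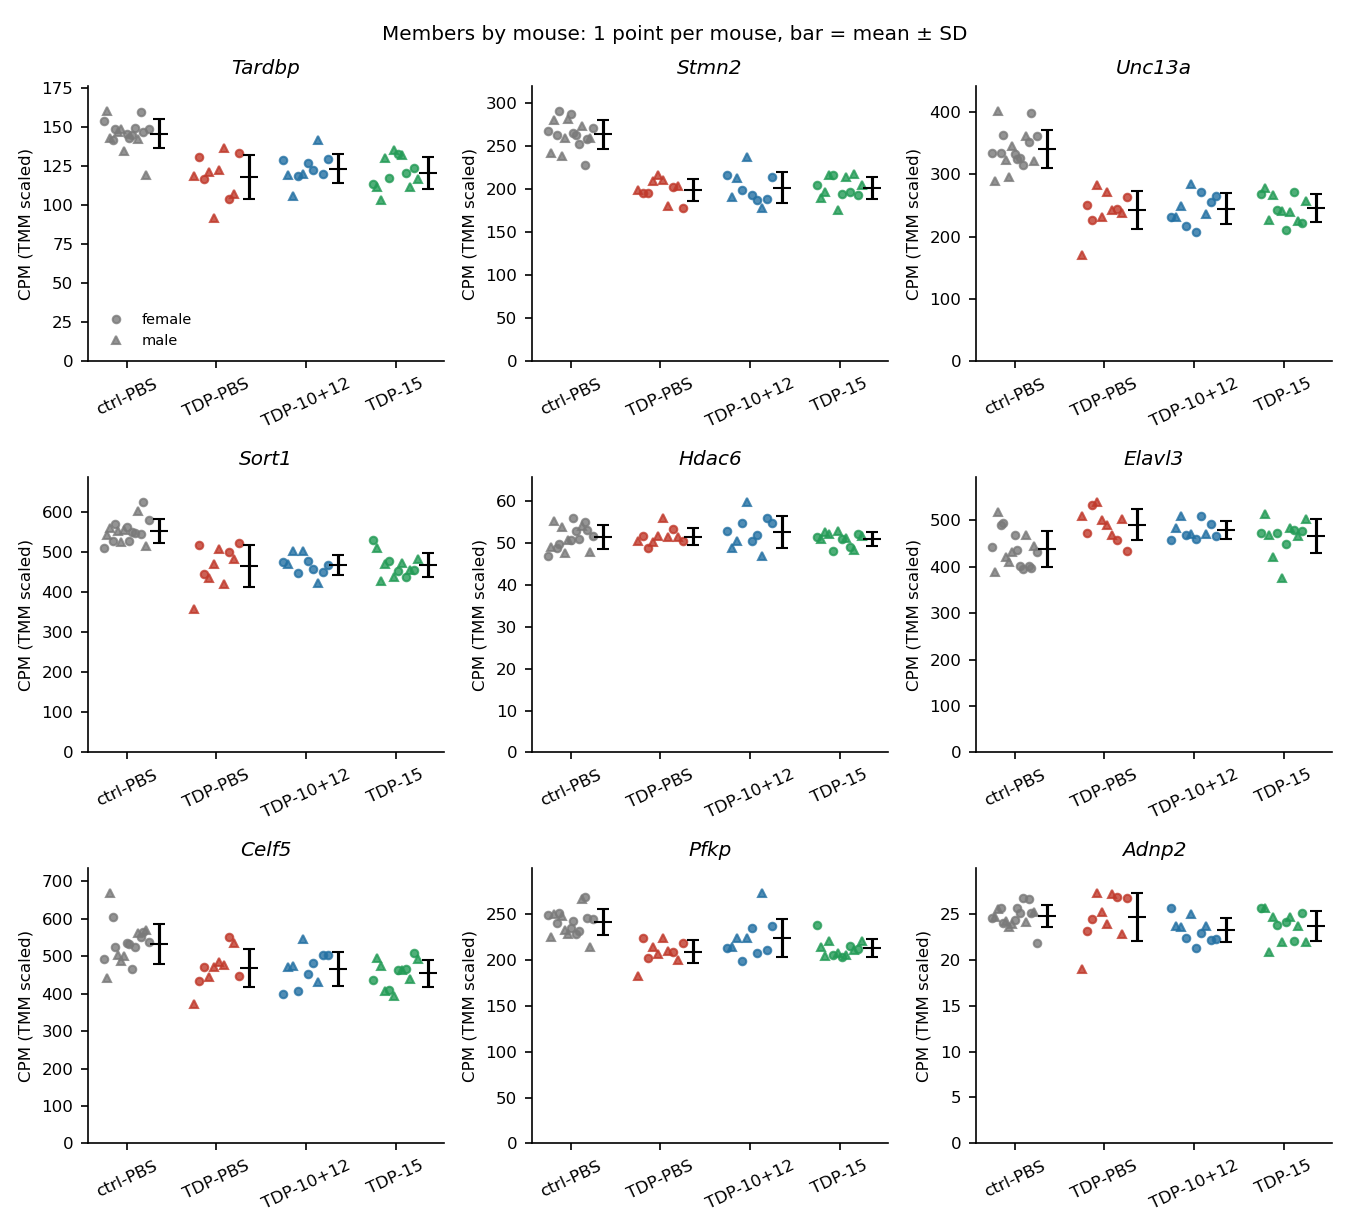
TMM-scaled CPM (y axis, from 0) of each of the 9 members in every mouse, by group (x axis), with circles for females, triangles for males and black bars for the mean ± SD. Unc13a lay below the lowest ctrl-PBS mouse (290 CPM) in all 32 rNLS8 mice, and Hdac6 lay between 46.8 and 59.7 CPM in all groups.

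Tardbp itself had between 120 and 160 CPM in the ctrl-PBS mice, with a median of 147. In TDP-PBS it ranged from 91.9 to 137 CPM (median 120.0), in TDP-10+12 from 106 to 142 (median 122) and in TDP-15 from 103 to 135 (median 119). The groups overlapped, since 14 of the 32 rNLS8 mice lay below the lowest control (mouse 322), while the next control (mouse 137) had 135 CPM. The log2 fold change against ctrl-PBS was -0.30 ± 0.05 (SE; adjusted p = 1.54e-06) in TDP-PBS, -0.24 ± 0.05 (adjusted p = 7.98e-05) in TDP-10+12 and -0.27 ± 0.05 (adjusted p = 3.03e-06) in TDP-15, all by edgeR's quasi-likelihood test. With the 3 rNLS8 groups averaged, for which 54.2% of all genes were called, Tardbp decreased by 17.2% (95% interval of the log2 fold change -0.35 to -0.20). Whether reads of the human transgene counted toward mouse Tardbp is not stated in the sources used here and was not tested. Masp2, a gene that overlaps Tardbp in the annotation, had a median of 6.26 CPM in ctrl-PBS, 4.27% of Tardbp. It was called lower in TDP-PBS (log2 fold change -0.46, adjusted p = 0.0459 by edgeR) and was not called in TDP-10+12 (-0.20). Its part in the counts of Tardbp was not tested.

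The same mice were set against Prnp, the prion protein gene. The tetO vector of this transgenic line is known to carry mouse prion gene sequence, so Prnp counts were read beside those of Tardbp. Prnp ranged from 434 to 525 CPM in ctrl-PBS (median 489). It ranged from 824 to 1112 CPM in TDP-PBS (median 1030), from 803 to 1674 in TDP-10+12 (median 1021) and from 905 to 1128 in TDP-15 (median 997). All 32 rNLS8 mice were above all 17 controls, a separation seen upward in 1.16% of genes tested (2.31% for TDP-PBS, 2.23% for TDP-10+12 and 2.45% for TDP-15 alone). The log2 fold change was 1.04 ± 0.06 (adjusted p = 1.09e-19), 1.11 ± 0.06 (adjusted p = 1.29e-20) and 1.05 ± 0.06 (adjusted p = 1.22e-20) in TDP-PBS, TDP-10+12 and TDP-15, by edgeR's quasi-likelihood test. How much of this came from vector sequence was not tested.

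Unc13a, which encodes a synaptic vesicle priming protein, showed the largest difference among the members. Its counts ranged from 290 to 402 CPM in ctrl-PBS (median 335). In TDP-PBS they ranged from 171 to 283 CPM (median 244), in TDP-10+12 from 208 to 285 (median 243) and in TDP-15 from 211 to 278 (median 242). No rNLS8 mouse reached the lowest control, a separation seen downward in 1.64% of all genes tested. The log2 fold change was -0.49 ± 0.06 (adjusted p = 1.11e-09) in TDP-PBS, -0.47 ± 0.06 (adjusted p = 2.8e-09) in TDP-10+12 and -0.47 ± 0.06 (adjusted p = 5.71e-10) in TDP-15 (edgeR quasi-likelihood test), and with the 3 groups averaged it decreased by 28.1%. Colgalt1, which overlaps Unc13a, had a median of 46.5 CPM in ctrl-PBS and was not called in TDP-PBS (log2 fold change -0.08, adjusted p = 0.0972 by edgeR).

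Stmn2, which encodes a tubulin-binding protein of growing axons, came next. It ranged from 227 to 290 CPM in ctrl-PBS (median 262), from 177 to 216 in TDP-PBS (median 200.1), from 178 to 236 in TDP-10+12 (median 196) and from 175 to 217 in TDP-15 (median 200.3). Of the 32 rNLS8 mice, 31 lay below all controls, and the exception was TDP-10+12 mouse 242. TDP-PBS and TDP-15 did not overlap ctrl-PBS, as in 2.58% and 3.08% of genes tested, respectively. The log2 fold change was -0.40 ± 0.04 (adjusted p = 1.5e-11), -0.38 ± 0.04 (adjusted p = 7.63e-11) and -0.39 ± 0.04 (adjusted p = 7.99e-12) in TDP-PBS, TDP-10+12 and TDP-15 by edgeR's quasi-likelihood test.

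Sort1 encodes sortilin, a sorting receptor that binds progranulin, and TDP-43 is known to control an alternative exon in it. It ranged from 511 to 625 CPM in ctrl-PBS (median 551), from 358 to 522 in TDP-PBS (median 476), from 424 to 502 in TDP-10+12 (median 469) and from 427 to 529 in TDP-15 (median 463). The TDP-10+12 mice were all below the controls (2.59% of genes tested were), whereas 2 TDP-PBS mice and 1 TDP-15 mouse were within the range of controls. The log2 fold change was -0.25 ± 0.04 (adjusted p = 3.69e-06), -0.24 ± 0.04 (adjusted p = 6.09e-06) and -0.24 ± 0.04 (adjusted p = 1.52e-06) in the same order, by edgeR's quasi-likelihood test.

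Celf5, a member of the CELF family of RNA-binding proteins, and Pfkp, the platelet type of phosphofructokinase in glycolysis, fell less. Celf5 ranged from 441 to 668 CPM in ctrl-PBS (median 533), from 372 to 552 in TDP-PBS (median 471), from 400 to 546 in TDP-10+12 (median 472) and from 392.3 to 508 in TDP-15 (median 463). The groups overlapped widely. Its log2 fold change was -0.19 ± 0.06 (adjusted p = 0.00506), -0.19 ± 0.06 (adjusted p = 0.00416) and -0.23 ± 0.05 (adjusted p = 0.000232) in TDP-PBS, TDP-10+12 and TDP-15 (edgeR quasi-likelihood test).

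Pfkp ranged from 214 to 268 CPM in ctrl-PBS (median 242), from 182 to 224 in TDP-PBS (median 209), from 198 to 273 in TDP-10+12 (median 219) and from 203 to 237 in TDP-15 (median 211). In TDP-10+12 the highest mouse exceeded every control. Its log2 fold change was -0.21 ± 0.04 (adjusted p = 1.47e-05) in TDP-PBS and -0.18 ± 0.04 (adjusted p = 5.72e-05) in TDP-15 by edgeR's quasi-likelihood test. In TDP-10+12 it was -0.11 ± 0.04 (adjusted p = 0.0203 by edgeR), and this call was lost without the 9 libraries with olfactory bulb or choroid plexus markers (-0.06, adjusted p = 0.314) and without a filter on low counts (-0.10, adjusted p = 0.0714). Pitrm1, which overlaps Pfkp, was at a median of 33.2 CPM in ctrl-PBS and was not called in TDP-PBS (log2 fold change 0.013).

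Elavl3 (HuC), a neuronal RNA-binding protein, differed in the other direction. It ranged from 389 to 517 CPM in ctrl-PBS (median 432), from 434 to 540 in TDP-PBS (median 495), from 457 to 510 in TDP-10+12 (median 470) and from 376 to 515 in TDP-15 (median 474). All 3 rNLS8 groups overlapped the controls. The log2 fold change was 0.17 ± 0.04 (adjusted p = 0.00151) in TDP-PBS and 0.13 ± 0.04 (adjusted p = 0.0135) in TDP-10+12 by edgeR's quasi-likelihood test. In TDP-15 it was 0.09 ± 0.04 (adjusted p = 0.0687 by edgeR), with a 95% interval from 0.0071 to 0.17. Without the 9 libraries the calls changed sides, with 0.11 (adjusted p = 0.0908) in TDP-10+12 and 0.11 (adjusted p = 0.039) in TDP-15 by the same test.

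Hdac6, which encodes a cytoplasmic tubulin deacetylase and lies on the X chromosome, and Adnp2, a homeobox gene, were not called in any rNLS8 group. Hdac6 ranged from 46.9 to 55.9 CPM in ctrl-PBS (median 51.0), and from 46.8 to 59.7 in the 32 rNLS8 mice (median 51.3). Its log2 fold change with the 3 groups averaged was 0.0076, with a 95% interval from -0.04 to 0.06. Adnp2 ranged from 21.8 to 26.6 CPM in ctrl-PBS (median 24.6) and from 18.9 to 27.2 in the rNLS8 mice (median 23.7), with a log2 fold change of -0.05 and an interval from -0.12 to 0.013. In TDP-10+12 alone Adnp2 had -0.09 (adjusted p = 0.0924 by edgeR, 0.0439 by limma-voom). With the groups averaged, a decrease of the size of that of Unc13a or Stmn2 lay outside both intervals.

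**Figure D2:**
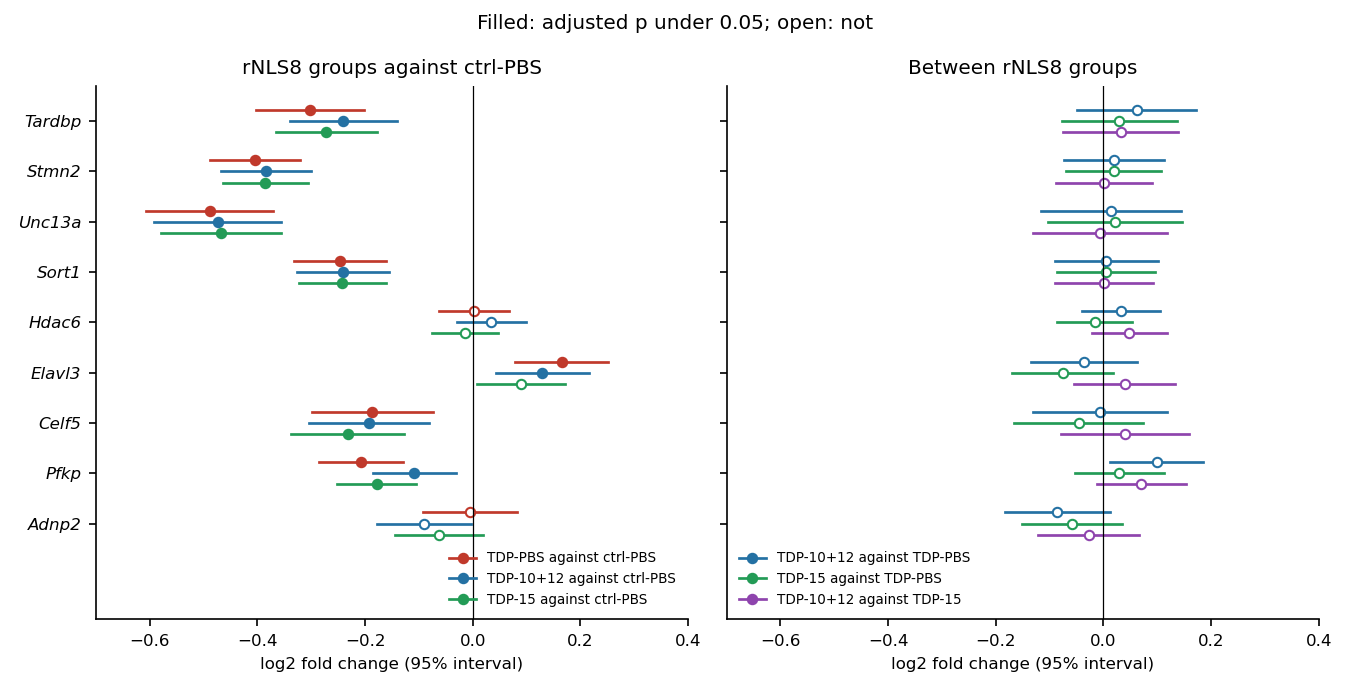
Log2 fold change of each member (points, x axis) with its 95% interval (lines), for the 3 rNLS8 groups against ctrl-PBS (left) and between rNLS8 groups (right), where filled points passed an adjusted p of 0.05. The 3 estimates of a gene lie close together on the left, from -0.49 for Unc13a to 0.17 for Elavl3, and every point on the right is open.

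Immunization did not separate the members. None of the 9 was called in TDP-10+12 against TDP-PBS, TDP-15 against TDP-PBS or TDP-10+12 against TDP-15 by edgeR, DESeq2 or limma-voom, and 0% of all genes tested were called by edgeR. DESeq2 and limma-voom called 0 to 2 genes in each. At an unadjusted p under 0.05, 953, 552 and 1244 genes passed in these comparisons, and 1 of the 9 members did in any of them. This was Pfkp in TDP-10+12 against TDP-PBS (log2 fold change 0.10, p = 0.0254, adjusted p = 0.926 by edgeR), in which the highest mouse of TDP-10+12 lay above all others. For Tardbp the difference was 0.06 (95% interval -0.05 to 0.17) in TDP-10+12 and 0.03 (-0.08 to 0.14) in TDP-15 against TDP-PBS. For Stmn2 it was 0.02 (-0.07 to 0.11) and 0.019 (-0.07 to 0.11), and for Unc13a 0.015 (-0.12 to 0.15) and 0.021 (-0.10 to 0.15). These intervals did not reach the decrease in TDP-PBS against ctrl-PBS of 0.30, 0.40 and 0.49, so a return of any of the 3 genes to the level of the controls lay outside them.

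Sex did not separate the members either. Among all 49 mice, with group as a term, 0.0933% of genes tested differed between females and males (0.0659% higher and 0.0274% lower in females), none of them a member, and the member with the smallest p was Tardbp (log2 of female over male 0.04, 95% interval -0.03 to 0.12, adjusted p = 0.999 by edgeR). X-linked Hdac6 had a difference of 0.0029 (-0.04 to 0.05). The genotype by sex interaction in the 27 PBS-treated mice was called for 0% of 17363 genes by edgeR, with 1097 genes and 0 members at an unadjusted p under 0.05, and for 0 members by DESeq2 or limma-voom. Its intervals were wide, as for Tardbp (0.0074, 95% interval -0.21 to 0.22) and Sort1 (0.15, -0.04 to 0.34).

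The members were then set beside markers of neurons, since fewer neurons and less RNA per neuron cannot be told apart in bulk tissue. Of 12 neuronal markers, 7 were lower and 1 higher (Thy1) in TDP-PBS, beside 21.6% and 21.9% of all genes tested. Their median log2 fold change was -0.27. The lower ones were Snap25 (-0.68), Syt1 (-0.63), Camk2a (-0.52), Gad1 (-0.41), Nefm (-0.39), Tubb3 (-0.27) and Map2 (-0.26). The summed level of the 12 markers was 13478 to 17205 CPM in ctrl-PBS, 10523 to 13393 in TDP-PBS, 10995 to 13218 in TDP-10+12 and 11368 to 12839 in TDP-15. All 32 rNLS8 mice were thus below all controls. Rbfox3 (log2 fold change -0.06, adjusted p = 0.292) and Slc17a7 (-0.03, adjusted p = 0.716), which label most neurons and excitatory neurons, were not called by edgeR. Microglial markers moved the other way, with 6 of 8 higher in TDP-PBS. The part of neuronal and microglial markers in the differences of the members was not tested.

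Each member was also taken as a ratio to the summed neuronal markers. This moves all members of a group by about the same amount, so it changes their signs but not their order. For Tardbp the mean log2 ratio to these markers differed from ctrl-PBS by -0.012 in TDP-PBS, 0.09 in TDP-10+12 and 0.03 in TDP-15. The SD between control mice was 0.16, and 3 of the 32 rNLS8 mice lay below and 3 above all controls. Unc13a stayed below the controls on this scale, at -0.20, -0.14 and -0.16 (control SD 0.11). Stmn2 was at -0.11, -0.05 and -0.08 (control SD 0.075), with 5 of 10, 3 of 10 and 4 of 12 mice below all controls. Among the 32 rNLS8 mice, 12 lay below all controls for each of these 2 genes. Sort1 (0.04, 0.09 and 0.06), Celf5 (0.11, 0.14 and 0.08) and Pfkp (0.09, 0.22 and 0.13) were no longer below the controls, and Hdac6 (0.30, 0.37 and 0.30) and Adnp2 (0.29, 0.24 and 0.24) lay above them. Elavl3 was higher by 0.46, 0.47 and 0.40, with all 32 rNLS8 mice above all controls. In CPM, 2 of the 32 rNLS8 mice lay above all controls for Elavl3. The summed markers that form the divisor were below all controls in all 32. The share of all genes that separate on this ratio was not computed. These ratios are descriptive, and the 12 markers set the scale. They moved by unequal amounts, from -0.68 to 0.38 on the log2 scale in TDP-PBS.

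**Figure D3:**
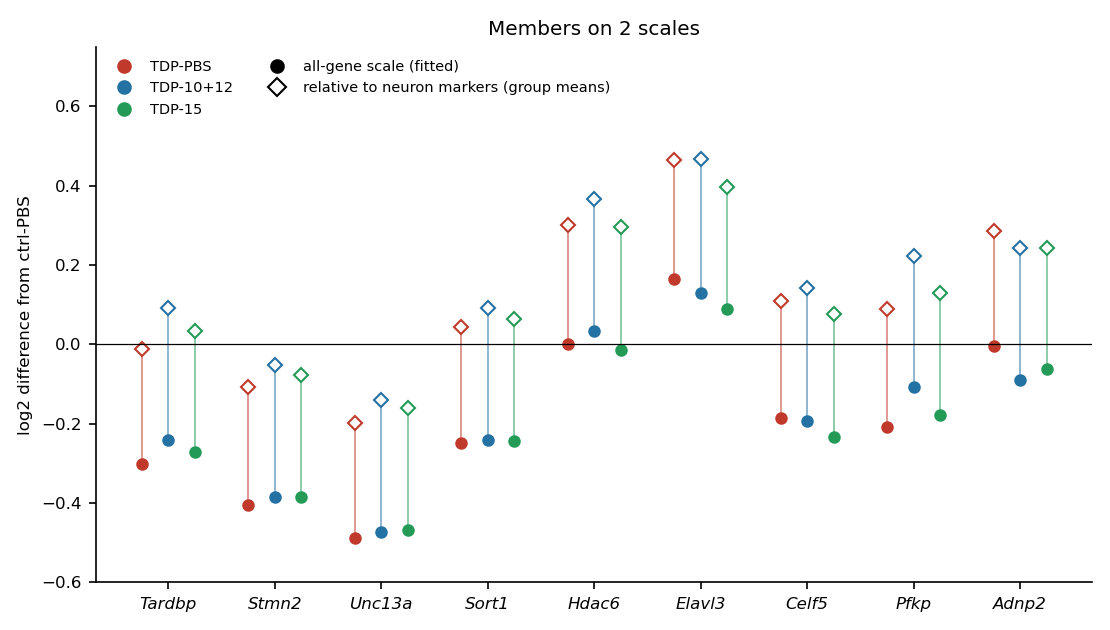
Log2 difference from ctrl-PBS (y axis) of each member in the 3 rNLS8 groups on the scale of all genes (filled circles, fitted fold change) and relative to 12 summed neuronal markers (open diamonds, difference of group means). On the second scale Tardbp lies between -0.012 and 0.09, Unc13a stays at -0.20 to -0.14 and Elavl3 rises to 0.40 to 0.47.

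The families of the members held both directions. Of 31 paralogues of the members (other stathmins, Munc13, sortilin-related, deacetylase, ELAV-like, CELF and phosphofructokinase genes, and Adnp), 14 were lower and 3 higher in TDP-PBS, with a median log2 fold change of -0.12. All 3 other stathmins were lower, Stmn1 by the most (-0.68 ± 0.08, adjusted p = 9.15e-11), followed by Stmn3 (-0.25 ± 0.04, adjusted p = 2.75e-07) and Stmn4 (-0.15 ± 0.05, adjusted p = 0.00657). The other Munc13 genes were lower too, namely Unc13b (-0.29), Unc13c (-0.74) and Unc13d (-0.47). In the immunized groups Stmn1, Stmn3 and Unc13c were lower in both, Unc13b in TDP-15 alone, and Stmn4 and Unc13d were called in neither. These values and their p-values are from edgeR's quasi-likelihood test, in which the lists were not tested as sets. The shares of paralogues called lower and higher in TDP-PBS stand beside 21.6% and 21.9% of all genes tested. In TDP-10+12, 11 were lower and 4 higher, beside 20.0% and 20.8% of all genes. In TDP-15, 13 were lower and 2 higher, beside 23.2% and 23.6%.

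The ELAV-like family was split. Elavl4 (HuD), another neuronal member, was lower (-0.60 ± 0.06, adjusted p = 6.38e-12 by edgeR) and the ubiquitous Elavl1 (HuR) was lower (-0.31 ± 0.05, adjusted p = 5.48e-07 by edgeR), while Elavl3 was higher and Elavl2 was not called (-0.0089). Among the CELF genes, Celf3 (0.22 ± 0.06, adjusted p = 0.00216) and Celf6 (0.22 ± 0.05, adjusted p = 0.00105) were higher and Celf1 (-0.17 ± 0.05, adjusted p = 0.00204) lower by the same edgeR test, whereas Celf2 (0.0010) and Celf4 (0.05) were not called. Sorl1 was lower (-0.40), as was Sorcs3 (-0.28), whereas Sorcs1 (-0.011) and Sorcs2 (-0.08) were not called. Of the other phosphofructokinases, Pfkl was lower (-0.24) and Pfkm, the muscle type, was not called (0.0038). Among the 10 other deacetylases, Hdac3 (-0.14) and Hdac10 (-0.21) were lower and Hdac11 (0.10) higher, and Adnp was not called (0.07).

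Other transcripts reported as TDP-43 targets did not move as a block. Of 17 genes in which cryptic exons have been described after loss of TDP-43, 7 were lower and 2 higher in TDP-PBS (median log2 fold change -0.06), beside 21.6% and 21.9% of all genes tested. By p-value the lower ones were led by Camk2b (-0.40 ± 0.04, adjusted p = 3.87e-13), Kalrn (-0.53 ± 0.06, adjusted p = 6.62e-10) and Cyfip2 (-0.34 ± 0.04, adjusted p = 9.64e-09) by edgeR. These encode a synaptic kinase subunit, a guanine nucleotide exchange factor of dendritic spines and an actin regulator. The lowest log2 fold change of the list was that of Synj2 (-0.54, adjusted p = 2.12e-08 by edgeR). Atg4b, an autophagy protease (0.17 ± 0.04, adjusted p = 0.000481), and Gpsm2 (0.17 ± 0.07, adjusted p = 0.0376) were higher by the same edgeR test. The counts were alike in the immunized groups, with 6 lower and 2 higher in TDP-10+12 (20.0% and 20.8% of all genes) and 7 lower and 1 higher in TDP-15 (23.2% and 23.6%).

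Of 9 neuronal targets with long introns, 4 were lower and none higher in TDP-PBS (median -0.11), beside 21.6% and 21.9% of all genes tested. Among them were Kcnd2, a potassium channel (-0.65 ± 0.07, adjusted p = 8.75e-11), Nrxn3, a neurexin (-0.31 ± 0.04, adjusted p = 2.16e-08), and Efna5 (-0.31), by edgeR's quasi-likelihood test. Nlgn1, Fgf14, Cadps and Ntrk3 lay between -0.11 and -0.03 and were not called. Of 5 targets of alternative splicing, Eif4h (-0.30) and Dnajc5 (-0.26) were lower and Tsn (0.12) higher, and Poldip3 and Kcnip2 were not called. In each immunized group 5 of the long-intron targets were lower, and of the splicing targets 2 were lower and 1 higher. Of all genes tested, 20.0% were lower and 20.8% higher in TDP-10+12, and 23.2% and 23.6% in TDP-15.

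The widest spread was among 5 mRNAs of neurodegeneration genes that TDP-43 is reported to bind. Grn, which encodes progranulin, the ligand of sortilin, was higher (0.89 ± 0.08, adjusted p = 3.27e-14), Nefl, the neurofilament light chain, was lower (-0.99 ± 0.06, adjusted p = 1.81e-19) and Mapt (tau) was lower (-0.21 ± 0.05, adjusted p = 0.000235), by edgeR's quasi-likelihood test. Grn is also expressed by microglia, whose markers were higher in the same mice. Add2 (-0.03) was not called.

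**Figure D4:**
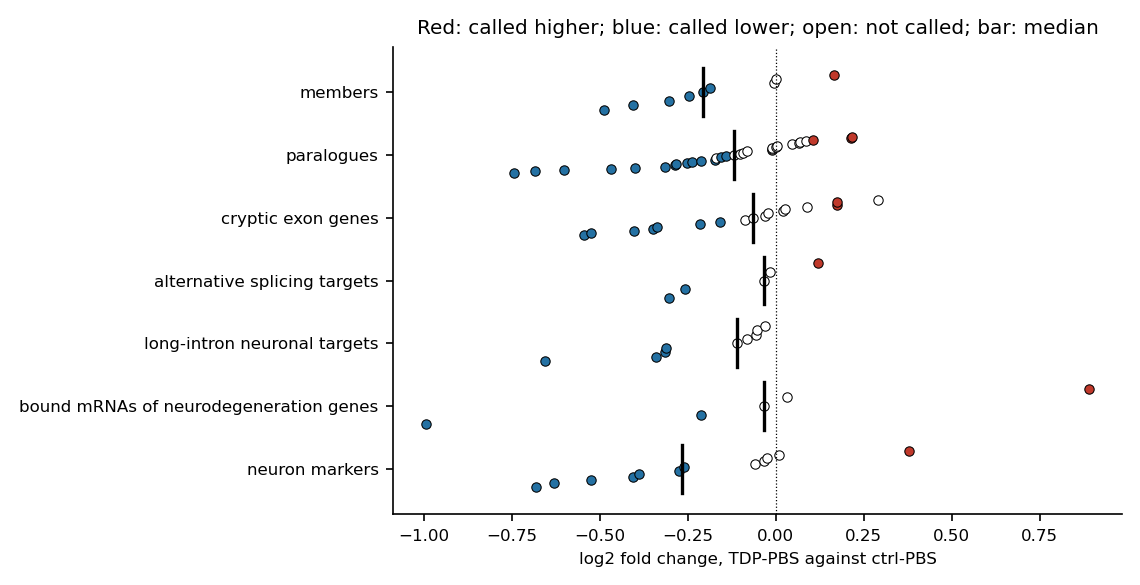
Log2 fold change in TDP-PBS against ctrl-PBS (x axis) of every gene (points) in the members, 5 further lists and the neuronal markers (rows), with red for called higher, blue for called lower, open for not called and a bar for the median. The medians of the lists lie between -0.27 (neuronal markers) and -0.03, and each list other than that of long-intron targets holds genes called in both directions.

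No relation between Tardbp and another member passed the test from mouse to mouse. Correlations of log2 CPM were computed among the 17 ctrl-PBS mice and among the 32 rNLS8 mice after subtraction of the group means. For the members and Prnp they were not computed over both, because the means of most of these genes differed between the genotypes. Of 18 relations (8 members and Prnp in each set of mice), 0 passed a permutation test with Benjamini-Hochberg adjustment, and 2 had an unadjusted p under 0.05 for Pearson's r, both in the rNLS8 mice. These were Elavl3 (Pearson's r = -0.44, permutation p = 0.0153, adjusted p = 0.190; Spearman's rho = -0.46, p = 0.0123, adjusted p = 0.221) and Stmn2 (r = -0.40, permutation p = 0.0211, adjusted p = 0.190; rho = -0.33, p = 0.0660, adjusted p = 0.238). Over 15520 genes, r with Tardbp in these mice ran from -0.47 to 0.49 between the 5th and 95th percentile, so both lay inside the usual range. Tardbp also went down where the summed neuronal markers went up (r = -0.46 in the rNLS8 mice and -0.33 in ctrl-PBS, as a description), whereas Stmn2 went up with them (0.49 and 0.69), and the part of these markers was not tested.

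Within the rNLS8 groups the sign for Elavl3 was the same, with r = -0.29 in TDP-PBS, -0.62 in TDP-10+12 and -0.57 in TDP-15. For Stmn2 it was -0.72, -0.35 and -0.16. None of the 27 relations within these groups passed the adjustment (smallest adjusted p = 0.316, permutation test). In ctrl-PBS the r of Elavl3 was -0.34 and that of Stmn2 -0.35 (permutation p = 0.188 and 0.164). By rank, Elavl3 in ctrl-PBS had rho = -0.52 (permutation p = 0.0359, adjusted p = 0.238) and Stmn2 rho = -0.39 (permutation p = 0.124).

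Without the 2 mice farthest from the median of Tardbp (mice 124 and 126), the r of Elavl3 in the rNLS8 set was -0.50 and passed (permutation p = 0.00535, adjusted p = 0.0321). The relation of Prnp with Tardbp changed most when mice were left out. It was 0.32 among the rNLS8 mice (permutation p = 0.0609, adjusted p = 0.255; rho = 0.28, p = 0.132) and 0.52 without the same 2 mice (adjusted p = 0.0321). Among the controls it was -0.012 (permutation p = 0.959, adjusted p = 0.978; rho = -0.41, p = 0.102) and -0.73 without mice 322 and 41 (adjusted p = 0.0321), of which mouse 322 had the lowest Tardbp of the controls (120 CPM) with 441 CPM of Prnp. These relations thus rest on which 2 mice are included. Within TDP-15 the sign for Prnp was negative (r = -0.36), whereas it was positive in TDP-PBS (0.48) and TDP-10+12 (0.64), where mouse 301 had the highest value of both genes.

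**Figure D5:**
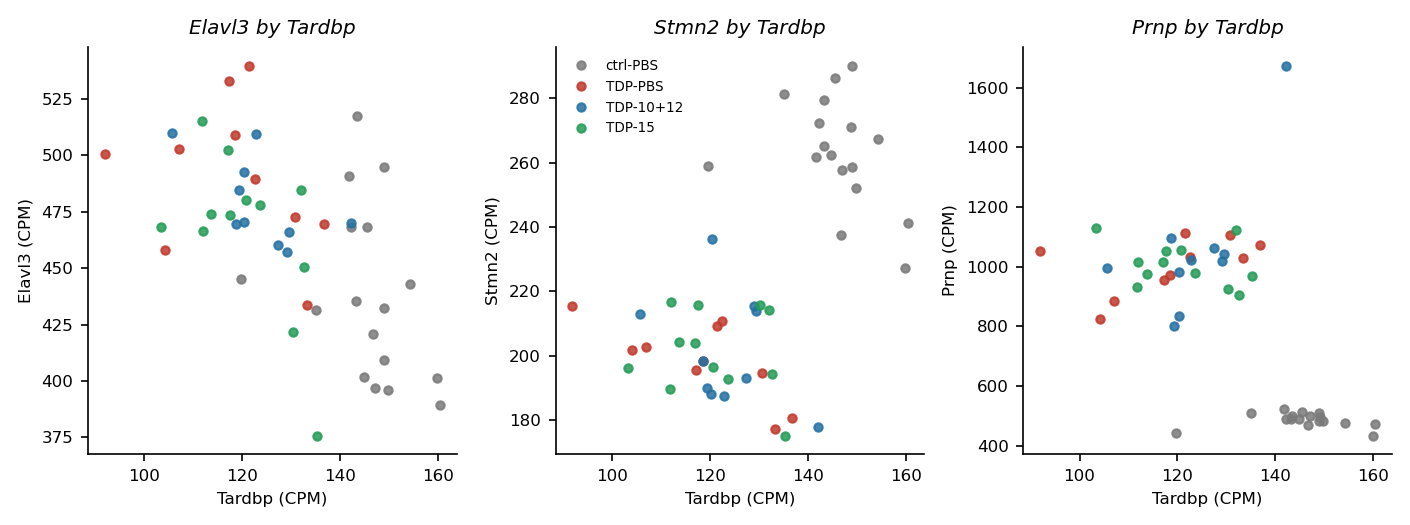
CPM of Elavl3, Stmn2 and Prnp (y axes) against CPM of Tardbp (x axes), 1 point per mouse and 1 color per group. All 32 rNLS8 mice lie above the ctrl-PBS mice for Prnp, and 31 of them lie below the ctrl-PBS mice for Stmn2. For Prnp, 1 TDP-10+12 mouse lies alone at 1674 CPM.

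Over all 49 mice with group means subtracted, the transcripts most like Tardbp among the 15520 genes with a mean of at least 1 CPM were Hnrnpa3 (r = 0.76), Tnpo1 (0.75), Zkscan8 (0.73), Mosmo (0.73) and Etnk1 (0.72). Hnrnpa3 encodes an RNA-binding protein and Tnpo1 a nuclear import receptor. Their r was 0.58 to 0.66 among the controls and 0.75 to 0.82 among the rNLS8 mice, given without a test because the genes were picked for it. The highest r of another member was that of Pfkp, 0.48 among the controls and 0.29 among the rNLS8 mice.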

How the data were processed

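RNA from about 30 mg of neocortex per mouse was sequenced as 100 bp paired-end reads (200 ng RNA, BGI mRNA kit). The authors aligned the reads to GRCm38.p6 and counted them by gene. The deposited values are whole counts that were not normalized. The submitters' processing notes name HISAT, HISAT2, Bowtie, Bowtie2, RSEM and mm10. Their versions and the strand setting are not given in the sources used here. The table held 45252 genes, 6073 without a count.

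Differences were tested with edgeR 4.0.16 (R 4.3.3), using filterByExpr by group, TMM factors (0.929 to 1.06), a quasi-likelihood fit of the 4 groups over all 49 mice without covariates, and Benjamini-Hochberg adjustment over all 18220 genes tested. Standard errors were derived from the F statistic, and intervals cover 95%. The study's methods used DESeq2, which served here as an alternative (1.42.0), as did limma-voom (limma 3.58.1), other filters, DESeq2 size factors, sex as a covariate and fits of 2 groups. Libraries of a group differed beyond counting noise, so no mouse was counted as a copy. Log2 CPM for correlations used a prior count of 2, with 100000 permutations (within group among rNLS8 mice).

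Transcripts and lengths came from GENCODE M21 on GRCm38, and introns were not searched for motifs. The authors' alignment could merge reads of overlapping genes, whose levels are therefore given. Members and lists were chosen with earlier results of these data known. Named were the 9 members, Prnp, the 3 genes with the smallest p in each direction of each list in TDP-PBS, the paralogues of called members, marker genes where a result turned on them and the 5 genes most correlated with Tardbp. Overlapping genes, Synj2, Efna5, Nlgn1, Fgf14, Cadps, Ntrk3, Hdac3, Hdac10, Adnp, Poldip3, Kcnip2 and Add2 were named after their values were seen. Some listed genes are not reported here by name.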

Additional observations from a re-analysis of the deposited data

Results flagged for a closer look

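In the groups of 10 mice, the highest or the lowest mouse was compared by Dixon's criterion (the gap to its nearest neighbor over the range of the group, against its critical value for 10 mice) for the 9 members and Prnp. Of 20 checks (each of these genes in TDP-PBS and in TDP-10+12), 4 exceeded it, and all 4 came from mice 26 and 301. Chance gives about 1 in 20 for independent checks. Genes measured in the same mice are not independent, so the 4 cannot be set against that rate. In TDP-PBS, mouse 26 had 171.39 CPM of Unc13a, the synaptic priming gene, with the next mouse at 227 CPM (gap over range 0.497), and 18.927 CPM of Adnp2, with the next at 22.8 CPM (0.467). The same mouse was the lowest of TDP-PBS for Sort1 (358 CPM), Celf5 (372 CPM) and Pfkp (182 CPM), and its library was among those with at least 1000 CPM of choroid plexus markers, whose part was not tested. Without it, the log2 fold change of Unc13a in TDP-PBS was -0.43 (adjusted p = 3.41e-09 by edgeR).

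In TDP-10+12, mouse 301 had 272.55 CPM of Pfkp, with the next mouse at 236 CPM (gap over range 0.491), and 1673.9 CPM of Prnp, with the next at 1096 CPM (0.663). It had the highest Tardbp of all 32 rNLS8 mice (142 CPM) and was the lowest of its group for Stmn2 (178 CPM), Sort1 (424 CPM) and Hdac6 (46.8 CPM), and its library was not among those with olfactory bulb or choroid plexus markers. Without it, the log2 fold change in TDP-10+12 was -0.13 for Pfkp (adjusted p = 0.00225) and 1.03 for Prnp (adjusted p = 2.88e-24) by edgeR. These settings were chosen after seeing the data.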

How the results depend on the processing

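The calls of Tardbp, Stmn2, Unc13a, Sort1 and Celf5 against ctrl-PBS, and the sign of every called member, held under all alternatives run. Exceptions were in the smaller differences, and their cause was not tested. Pfkp in TDP-10+12 missed the threshold with no filter on low counts (-0.10, adjusted p = 0.0714) and without the 9 libraries with olfactory bulb or choroid plexus markers (-0.06, adjusted p = 0.314). Elavl3 in TDP-10+12 missed it without those libraries (0.11, adjusted p = 0.0908). Elavl3 in TDP-15 passed with at least 10 counts in every mouse (0.09, adjusted p = 0.0499), by limma-voom (0.10, adjusted p = 0.0426) and without those libraries (0.11, adjusted p = 0.039). Adnp2 in TDP-10+12 passed by limma-voom alone (-0.10, adjusted p = 0.0439). All other p-values are from edgeR, and leaving out libraries was chosen after seeing the data.

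Between rNLS8 groups, the number of genes called went from 0 to 1 (no filter) or 2 (limma-voom) in TDP-10+12 against TDP-PBS, and to 1 (no filter), 2 (only the 2 groups compared) or 2 (DESeq2) in TDP-10+12 against TDP-15, none of them a member. Without the 2 mice farthest from the median of Tardbp, 1 relation with Tardbp passed among ctrl-PBS mice and 2 passed among rNLS8 mice. With the length of all annotated exons, chosen after seeing the data, median levels in ctrl-PBS were 46.825 CPM per kb for Stmn2, 26.515 for Unc13a, 72.818 for Sort1, 8.7627 for Hdac6, 62.734 for Elavl3, 79.906 for Celf5, 18.051 for Pfkp and 208.8 for Prnp. No paired analysis was run, since every mouse was a separate animal and the labels used here give no litter. The paper states that littermates were assigned at random to the cohorts. Depth limits Adnp2 and Hdac6 most, which had the lowest counts of the members (from 362 and 884 in a mouse), and how much of their spread is counting error was not tested.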
